A study of Mus musculus with 20 samples.

Results

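Histone genes were taken as every gene of the count tables whose symbol starts with HIST1H, HIST2H, HIST3H, HIST4H, H2AF, H3F3 or H1F, which gave 83 of 22936 genes. Of these, 68 were replication-dependent genes (symbols starting with HIST) and 15 were replacement genes. Replication-dependent genes supply most of the core histones H2A, H2B, H3 and H4 and of the linker histone H1 while DNA is copied in S phase, and their mRNAs end in a stem-loop bound by SLBP instead of a poly(A) tail. Replacement genes are transcribed outside S phase as well, mostly as polyadenylated mRNAs, and encode variants such as H2A.Z, H3.3, H2A.X and macroH2A, which mark promoters, active chromatin, DNA breaks and silent chromatin. Linker histone H1.0 is known to accumulate in differentiated cells, and macroH2A histones are known from studies of somatic cells as a barrier to reprogramming.

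Single-cell RNA-seq followed mouse stem cells in both directions between extraembryonic endoderm (XEN) and pluripotency, in 10 conditions of 2 libraries each. The XEN line 3F-4 (homozygous for Col1A1TetO-OKSmCh/TetO-OKSmCh, for R26M2rtTA/M2rtTA and for Oct4-GFPTg/Tg) carried Oct4, Klf4 and Sox2 with an mCherry reporter under a doxycycline-inducible promoter. The ES line iGata4-Gata6-Venus (Col1A1TetO-Gata4/+; R26M2rtTA/+; Gata6H2B-Venus/+) carried an inducible Gata4. Each direction rests on 1 line, and its duplicates are technical, so p-values below cover the spread between libraries and not that between cultures. XEN cells were kept on fibroblast feeders, inactivated with mitomycin C, in the reprogramming medium without doxycycline. This medium, used up to day 28, held serum, LIF, ascorbic acid and a GSK3β inhibitor. The day 7, day 14 and day 28 libraries came from cells on feeders with doxycycline, sorted by SSEA1 and Oct4-GFP into subpopulations that were mixed again. XEN-iPS cells were sorted at day 14 as negative for SSEA1 and PDGFRα and positive for Oct4-GFP, and replated. At day 28 cells positive for SSEA1 and Oct4-GFP and negative for PDGFRα were sorted. These were replated on feeders and grown in standard serum and LIF medium without doxycycline, so XEN-iPS and XEN also differ in medium and in sorting. ES cells were grown in serum and LIF. The 9h, 24h and 48h cells had doxycycline in that medium for these hours, which induced Gata4. The 9h cells were sorted and mixed again, and the 24h and 48h cells were not sorted. The iXEN cells had doxycycline first and then none. The ES line also carries an H2B-Venus fusion at Gata6, and its part in the H2B counts was not tested.

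After removal of cells with fewer than 500 genes, of clusters with feeder or differentiation markers and of single cells with 2-cell markers, 107816 of 134279 cells remained, with 46174730 to 138204184 UMIs (counted molecules) per library. The labels matched the lineage markers. A list of 8 pluripotency genes summed to between 2136 and 2811 CPM (UMIs relative to the scaled library size) in XEN-iPS and ES and to 5.263 and 5.93 CPM in XEN, whereas 8 endoderm genes summed to 1785 and 2145 CPM in XEN, to 1783 and 3136 CPM in iXEN and to at most 17.9 CPM in XEN-iPS and ES. Feeder markers in the kept cells summed to at most 16.95 CPM except in XEN-iPS replicate 2 (75.23 CPM), where 3732 feeder-like cells had been removed beside 3091 kept. Between 10 and 109 cell barcodes were shared by each of the 190 pairs of libraries. A number in the deposited library names divides the libraries into 4 groups, here called runs. The labels do not say that these are sequencing runs. The first held XEN, day 28 and ES, and the second day 7, day 14, iXEN and the first libraries of XEN-iPS, 24h and 48h. The third held both 9h libraries and the second libraries of 24h and 48h, and the fourth the second XEN-iPS library. Conditions of different runs cannot be told apart from those runs.

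The stem-loop was searched in the GENCODE vM21 transcripts (GRCm38), since it decides how these mRNAs end. It was found in 33 of the 68 replication-dependent genes and in 0 of the 15 replacement genes, in only 2 forms, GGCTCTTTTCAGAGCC in 26 genes and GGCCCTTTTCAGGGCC in 7. In 16 of the 33, more than 100 annotated bases followed it, so that a longer form of the transcript is known. A poly(A) signal stood in the last 60 bases of 17 of 68 replication-dependent and 11 of 15 replacement genes. The libraries were primed from poly(A), so the counts of replication-dependent genes hold only what was captured that way, and levels are compared between conditions and not between genes. The stretches below belong to genes described further on, with the stem-loop in capitals.
Hist1h2ap: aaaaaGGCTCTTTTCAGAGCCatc
Hist1h2ag: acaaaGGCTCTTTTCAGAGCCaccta
Hist1h1c: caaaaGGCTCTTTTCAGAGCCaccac
Hist1h1e: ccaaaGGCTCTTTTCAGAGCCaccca
Hist1h2bf: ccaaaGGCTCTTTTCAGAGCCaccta
Hist3h2ba: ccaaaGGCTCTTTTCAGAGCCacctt
The 6 stem-loops are identical, though the pattern searched allowed little variation, and the stretches shown differ only in the bases on either side. The bodies of the genes are also alike: 42 of 68 replication-dependent genes share at least 50% of their 25-base words with another histone gene, against 2 of 15 replacement genes, and Hist1h2ap shares 93.4%. Counts of single replication-dependent genes therefore depend on how the aligner placed reads that fit several copies.

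Promoters (250 bases before to 50 after the start) were taken from RefSeq on GRCm38.p6 for 74 members, 61 of them replication-dependent. CCAAT, searched on both strands, was present in 85.2% of replication-dependent and 69.2% of replacement promoters, beside 41.1% of the promoters of 27025 genes. Among the replication-dependent promoters it stood in all 6 of H1, 17 of H2A, 16 of H2B and 10 of H3, but in 3 of 12 of H4. The octamer ATTTGCAT, the motif that Oct factors are known to bind, was in 7 of 17 of these H2A and 7 of 16 of these H2B promoters, in 0 of the replication-dependent H1, H3 and H4 promoters, in 1 of 13 replacement promoters (7.69%, that of H3f3b) and in 1.97% of all. TATAAA was in 57.4% of replication-dependent, 7.69% of replacement and 15.7% of all promoters. Like CCAAT, the octamer and TATAAA were searched on both strands and anywhere in the stretch. The promoters of the 2 H2B genes and the macroH2A gene that differed most between XEN and the pluripotent cells are shown 5′ to 3′ on the gene's strand, with CCAAT and TATAAA in capitals on either strand.
Hist1h2bf, chr13:23574158-23574457, minus strand: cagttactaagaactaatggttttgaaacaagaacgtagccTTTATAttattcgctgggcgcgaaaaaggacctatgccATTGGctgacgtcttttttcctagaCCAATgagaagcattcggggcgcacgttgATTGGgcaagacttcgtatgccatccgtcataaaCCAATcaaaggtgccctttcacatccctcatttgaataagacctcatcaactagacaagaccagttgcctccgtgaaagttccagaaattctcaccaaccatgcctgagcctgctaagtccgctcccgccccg
Hist3h2ba, chr11:58948661-58948960, plus strand: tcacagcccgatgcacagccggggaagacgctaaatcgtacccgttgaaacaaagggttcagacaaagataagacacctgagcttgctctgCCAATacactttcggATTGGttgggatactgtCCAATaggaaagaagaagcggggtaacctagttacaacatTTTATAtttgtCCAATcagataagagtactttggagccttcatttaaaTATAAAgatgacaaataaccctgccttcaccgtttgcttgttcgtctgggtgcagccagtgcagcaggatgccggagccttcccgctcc
H2afy2, chr10:61783815-61784114, minus strand: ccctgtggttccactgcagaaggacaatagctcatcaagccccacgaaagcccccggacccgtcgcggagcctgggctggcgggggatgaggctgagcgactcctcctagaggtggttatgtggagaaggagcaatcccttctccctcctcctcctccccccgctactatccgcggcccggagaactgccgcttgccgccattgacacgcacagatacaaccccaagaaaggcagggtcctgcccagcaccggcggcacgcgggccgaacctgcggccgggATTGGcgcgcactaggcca
Both H2B promoters hold several CCAAT boxes and TATAAA but no octamer. In that of Hist1h2bf, TATAAA is on the opposite strand only, near the 5′ end of the stretch and far from the start. The H2afy2 promoter holds 1 CCAAT box just after its RefSeq start. In GENCODE, H2afy2 starts upstream of this stretch, at 61784147, so the stretch lies within the gene as annotated there. A match of letters is not a measured site.

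Replication-dependent genes made up a small and uneven part of the counts. All histone genes together took between 0.501% and 1.02% of the UMIs of a library. Hist1h2ap, an H2A gene, alone gave 50.6% of all replication-dependent UMIs, and the 5 highest genes gave 73.5%. Only 8 of the 68 had a mean of at least 10 CPM over the 20 libraries, and 10 were under 1 CPM. Of the replacement genes, H2afz and H3f3b gave 66.3% of the UMIs, and 8 had a mean of at least 100 CPM. The oocyte and testis genes H1foo, H1fnt, H2afb1, H2afb2 and H2afb3 had means between 0.0007066 and 0.02193 CPM. They were the 5 members that did not pass the filter on low counts, which left 78 members to test, 68 replication-dependent and 10 replacement.

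The summed level of the replacement genes was highest in ES cells and at 9h. It was 9094 and 8214 CPM in ES (replicates 1 and 2), 10040 and 10310 for 9h, 7075 and 7815 for 24h, 5393 and 5720 for 48h, and 4251 and 6495 for iXEN. In the other direction it was 4853 and 6129 in XEN, 6663 and 5262 at day 7, 4979 and 4856 at day 14, 5481 and 4699 at day 28, and 7639 and 5569 in XEN-iPS. Both ES libraries were above both XEN libraries and above both 48h and both iXEN libraries. The log2 ratio was 0.66 for ES against XEN, with a pooled SD of duplicates of 0.18, -0.64 (0.08) for 48h against ES and -0.69 (0.31) for iXEN against ES. Without H2afz the same ratios were 0.14 (0.25), -0.03 (0.05) and 0.04 (0.31), so that none of them exceeded the spread of the duplicates. These sums have no test, since the members were chosen with earlier results known, and in summed counts fewer cells of a type and less RNA per cell cannot be told apart.

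**Figure D1:**
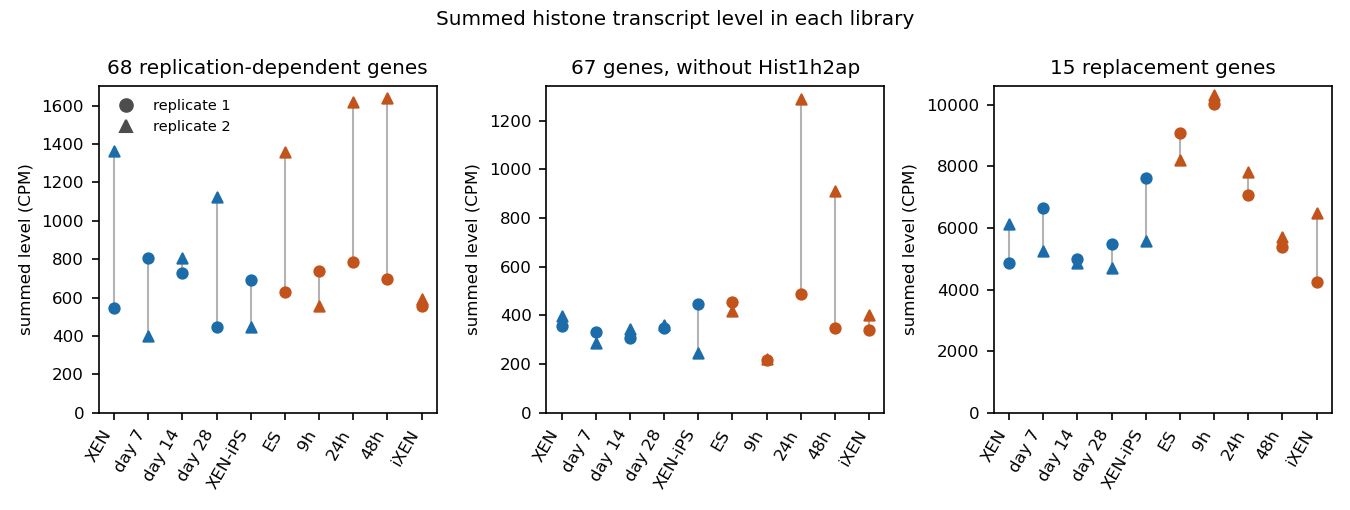
Summed level of replication-dependent and replacement histone genes (CPM) in each of the 20 libraries, 1 point per library and 2 libraries per condition. Replacement genes are highest in ES and 9h (8214 to 10310 CPM), and the duplicates of the replication-dependent sum lie at least 2.02-fold apart in XEN, day 7, day 28, ES, 24h and 48h, with replicate 1 the higher at day 7 and replicate 2 in the others.

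The replication-dependent sum differed by up to 2.54-fold between duplicates. It was 545.8 and 1364 CPM in XEN, 804.6 and 398.2 at day 7, 444.2 and 1126 at day 28 and 628.6 and 1356 in ES, and in these 4 conditions most of the difference was in Hist1h2ap. Hist1h2ap stood at 187.7 and 966.6 CPM in XEN, 473.1 and 111.0 at day 7, 94.54 and 765.1 at day 28 and 173.8 and 939.2 in ES, and without it the sums were 358.1 and 397.6, 331.6 and 287.2, 349.6 and 361.1, and 454.8 and 417.3. Hist1h2ap was higher in replicate 2 in XEN, day 28 and ES, all of the first run, and in replicate 1 at day 7. It passed the test in 0 of the comparisons (adjusted p from edgeR's quasi-likelihood test between 0.115 and 0.98 over the 12 comparisons). At 24h and 48h the difference ran through the whole class instead.

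The second 24h and 48h libraries, both of the third run, held far more replication-dependent RNA than the first ones. Without Hist1h2ap the sum was 487.5 and 1289 CPM at 24h and 348.7 and 909.9 CPM at 48h. In both conditions 62 of 68 genes were higher in replicate 2, and the median difference between duplicates in either direction was 1.53 (24h) and 1.69 (48h) on the log2 scale, beside 0.335 and 0.371 over all genes. By family, H1 genes summed to 161.2 and 446.5 CPM at 24h, H3 genes to 58.47 and 220.2, and H4 genes to 73.94 and 237.5. The 9h libraries, of the same run, were the lowest of the 20 on this sum (216.7 and 221.7 CPM) and hardly differed from each other, with a median difference of 0.159. Summed S phase genes were alike in the duplicates, at 2259 and 2134 CPM at 24h and 1549 and 1766 CPM at 48h. In XEN-iPS 59 of 68 genes were lower in replicate 2, with a median difference of 1.13, and here all genes differed by 0.606. Each pair of duplicates differed by more than sampling noise, with a chi-square per degree of freedom from 9.61 at 9h to 354 in XEN-iPS, so all 20 libraries were counted apart.

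To be called, a gene needed a change of 1 or more on the log2 scale with an adjusted p below 0.05 in edgeR's quasi-likelihood test, run on the summed UMIs of all 20 libraries and adjusted over 16758 genes. Over the 11 comparisons of 2 conditions, 51 members were called at least once, 42 replication-dependent and 9 replacement, while 77.0% of all genes tested were called at least once. With 1 library of a condition left out, the other is taken to vary like the rest. Counts without a library stand beside no share of all genes, and only show how far a count rests on having that library. The test is weaker with 1 library in a condition, so a lost call need not mean a smaller change.

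On the way from XEN to iPS few members moved early. At day 7, 1 replacement gene was higher and 3 replication-dependent genes were lower than in XEN, while 12.1% of all genes tested were called higher and 6.89% lower. The count of 4 was 1 without XEN replicate 1 or 2, 2 without day 7 replicate 1 and 0 without day 7 replicate 2. At day 14, 2 replacement genes were higher and 2 replication-dependent genes lower (all genes: 13.0% and 5.83%), and the count of 4 was 0, 2, 3 and 0 without XEN replicate 1, XEN replicate 2, day 14 replicate 1 and day 14 replicate 2. At day 28, 6 replication-dependent and 2 replacement genes were higher and 1 replication-dependent gene lower (all genes: 21.7% and 8.96%), and the count of 9 was 4 without either XEN library, 7 without day 28 replicate 1 and 3 without day 28 replicate 2. In XEN-iPS, 9 replication-dependent and 4 replacement genes were higher and 2 and 1 lower than in XEN (all genes: 26.4% and 20.7%), and the count of 16 was 11, 16, 17 and 25 without XEN replicate 1, XEN replicate 2, XEN-iPS replicate 1 and XEN-iPS replicate 2. With only the compared libraries in the model the count was 8 at day 7 (22.2% of all genes called), 9 at day 14 (22.1%) and 17 at day 28 (33.4%), and with all cells kept it was 1 at day 7 (17.6%). In the model of all libraries, the share of the 78 members called at day 7, day 14, day 28 and in XEN-iPS against XEN was below that of all genes in both directions. At day 28 the count was 20 with the run as a block (31.1% of all genes). With the libraries of the first run alone, it was 21 with the replicate number as a block (35.2%) and 16 without it (34.9%).

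On the way from ES to iXEN the direction of the calls of replication-dependent genes changed with time. At 9h, 7 replication-dependent genes were lower and 2 replacement genes higher than in ES (all genes: 2.6% higher, 3.56% lower). Most of these 9 calls were lost when any 1 of the ES or 9h libraries was left out, which leaves 1 library in that condition. With the model fitted on the ES and 9h libraries alone, 29 members were lower and 2 higher (all genes: 10.4% and 6.46%), and with all cells kept 2 were lower and 1 higher (all genes: 2.58% and 1.69%). At 24h, 14 replication-dependent and 2 replacement genes were higher and 0 lower (all genes: 7.37% and 3.89%), and the count of 16 was 0 without either ES library, 22 without 24h replicate 1 and 1 without 24h replicate 2. Members called higher at 24h were 32 with the ES and 24h libraries alone (all genes: 9.61%), 27 with no filter on low counts (5.33%), 27 with DESeq2 (7.95%) and 4 with all cells kept (4.38%). At 48h, 8 replication-dependent and 3 replacement genes were higher and 2 and 1 lower (all genes: 17.5% and 13.4%), and the count of 14 was 3, 5, 28 and 4 without ES replicate 1, ES replicate 2, 48h replicate 1 and 48h replicate 2. In iXEN, 12 replication-dependent and 2 replacement genes were lower and 2 and 1 higher than in ES (all genes: 24.5% higher, 19.5% lower), and this count of 17 was 12 or 13 without any 1 library, 29 with the ES and iXEN libraries alone and 28 with no filter on low counts. Members called lower in iXEN were 24 of 73 with those libraries alone (all genes: 20.9%), 24 of 83 with no filter (16.1%) and 21 of 78 with DESeq2 (20.7%), above the shares of all genes. At 48h the count was 9 with all cells kept (26.8%). The shares of members called lower at 9h and higher at 24h were above those of all genes but near them with all cells kept, and in the model of all libraries those at 48h and in iXEN were below them. The median log2 fold change of the 68 replication-dependent genes was -0.96 for 9h, 1.5 for 24h, 0.98 for 48h and -0.94 for iXEN, beside medians of -0.02, 0.01, 0.04 and 0.07 over all genes. With all cells kept, it was -0.94 for 9h and 1.5 for 24h. Of the ES, 9h and 24h libraries, only ES replicate 1 gained cells in that setting (289), so the calls fell while the cells compared were nearly the same. The medians at 24h and 48h rest on the second libraries, since they were 0.48 without 24h replicate 2 and -0.19 without 48h replicate 2 (2.04 and 1.38 without replicate 1), while those of 9h and iXEN were between -1.07 and -0.87 without any 1 library.

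The stable states were compared with each other as well. In ES, 11 replication-dependent and 6 replacement genes were higher and 0 and 2 lower than in XEN (all genes: 23.6% higher, 21.7% lower). In this model of all libraries the share of members called higher was near that of all genes, and the share called lower was below it. The count of 19 was between 14 and 17 without any 1 library. It was 30 with the run block (45.5% of all genes) and, on the first run alone, 35 with the replicate block (49.6%) and 28 without it (49.1%). With the ES and XEN libraries alone it was 31 (49.8%). The median log2 fold change was 0.73 over the replication-dependent and 1.20 over the replacement genes tested, beside 0.04 over all genes. Against ES, XEN-iPS had 1 replication-dependent gene higher and 2 lower (all genes: 10.1% and 4.56%), a count of 3 that was 10 without XEN-iPS replicate 1, 3 without XEN-iPS replicate 2 and 0 without either ES library. Other settings gave between 0 and 5. Against XEN, iXEN had 3 replication-dependent and 2 replacement genes higher and 1 and 1 lower (all genes: 15% and 5.65%), a count of 7 that was 5, 7, 8 and 4 without XEN replicate 1, XEN replicate 2, iXEN replicate 1 and iXEN replicate 2. XEN is the second condition in 6 of the 11 comparisons and ES in 5, so the comparisons share their libraries.

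**Figure D2:**
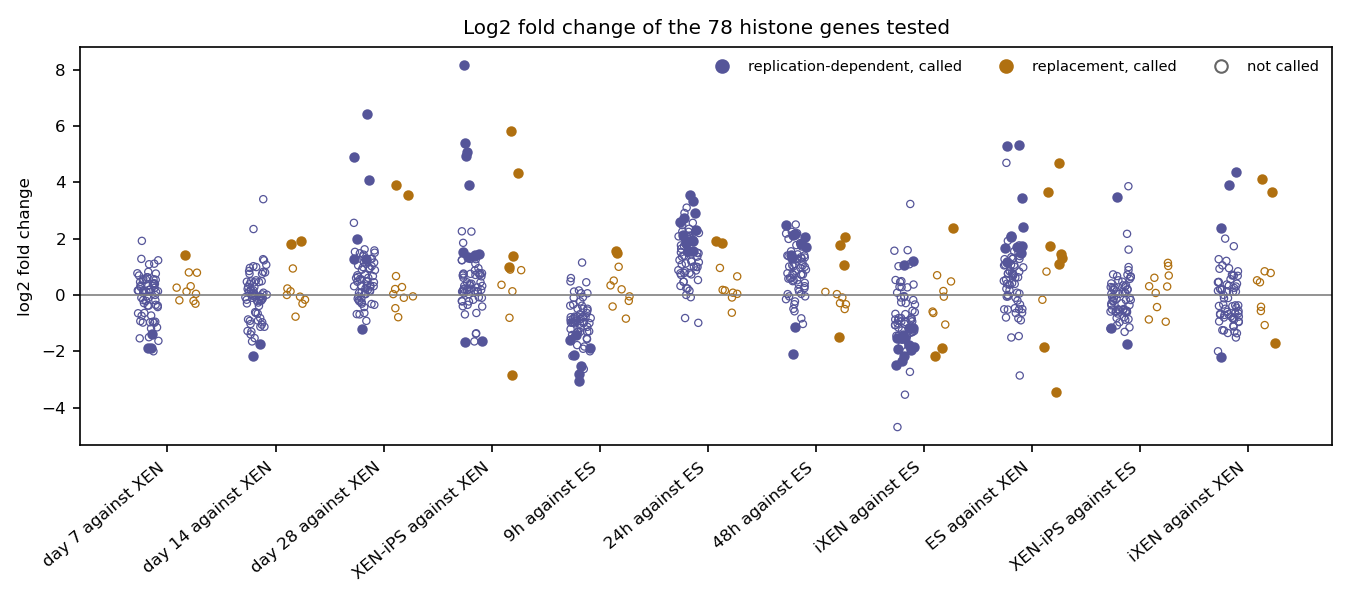
Log2 fold change of each of the 78 members tested (1 point per gene) in each comparison, filled where called, with replication-dependent and replacement genes apart. Replication-dependent genes lie mostly below 0 at 9h and in iXEN against ES and above 0 at 24h and 48h against ES, where the medians are 0.48 and -0.19 without the second library.

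Among the replacement genes, those of H2A.Z, a variant placed beside the starts of genes, differed in course. H2afz stood at 4979 and 4346 CPM in ES, 5288 and 5421 at 9h, 2908 and 3113 at 24h, 1548 and 1728 at 48h, with 994.8 and 1542 in iXEN. It fell in both later conditions, by 1.51 on the log2 scale at 48h (SE 0.28, adjusted p from edgeR 0.000666) and by 1.88 in iXEN (SE 0.29, adjusted p 5.79e-05), and neither group overlapped with ES. In XEN it was 1856 and 1900 CPM and in XEN-iPS 2926 and 1910, a log2 difference of 0.36 (SE 0.28, adjusted p 0.276), with day 7, day 14 and day 28 between 1280 and 2830. ES was above XEN by 1.31 (SE 0.28, adjusted p 0.000991). H2afv, which encodes the second form of H2A.Z, was at 240.4 and 274.1 CPM in XEN, 738.9 and 616 in XEN-iPS and 589.5 and 504.6 in ES. It was 2.6-fold higher in XEN-iPS and 2.1-fold higher in ES than in XEN (adjusted p 0.000121 and 0.000974).

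H3.3 is encoded by H3f3a and H3f3b, and only the first was called. H3f3a was at 347.6 and 484.9 CPM in XEN, 1119 and 1133 in ES and 663.6 and 1013 in XEN-iPS. It was higher in ES by 1.44 on the log2 scale (SE 0.24, adjusted p from edgeR 0.000107) and in XEN-iPS by 1.01 (SE 0.24, adjusted p 0.00185), and the latter call was lost without XEN replicate 1 or XEN-iPS replicate 2 (log2 0.75 to 1.36 over the omissions). H3f3b ranged from 1276 to 3130 CPM, its 11 log2 differences from -0.17 to 0.70, with an adjusted p of at least 0.0699. The highest library was iXEN replicate 2, whose duplicate was at 1600 CPM. H3f3a overlaps the antisense gene H3f3aos.

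H2afx, which encodes the variant that is phosphorylated beside DNA breaks, was at 128.0 and 169.0 CPM in XEN, 515.4 and 487 in ES and 100.2 and 121 in iXEN. It was 3.4-fold higher in ES than in XEN (adjusted p from edgeR 0.000374) and 4.5-fold lower in iXEN than in ES (adjusted p 7.21e-05). In XEN-iPS it was 392.9 and 154.9 CPM, so that only replicate 1 came near ES, and the log2 difference from XEN was 0.88. H2afj, which encodes H2A.J, stood at 420.5 and 933.4 CPM in XEN and 429.0 and 342.9 in XEN-iPS. It was 207.5 and 170.5 CPM in ES and 331.3 and 85.66 in iXEN. It was lower in ES than in XEN by a log2 difference of -1.84 (SE 0.49, adjusted p 0.00486), a call lost without XEN replicate 2 or ES replicate 2, and in iXEN than in XEN by -1.70 (SE 0.49, adjusted p 0.0183), lost without XEN replicate 2 or iXEN replicate 2. Without XEN replicate 2 these differences were -1.15 and -1.11, and the second was -2.99 without iXEN replicate 1 and -1.04 without iXEN replicate 2.

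**Figure D3:**
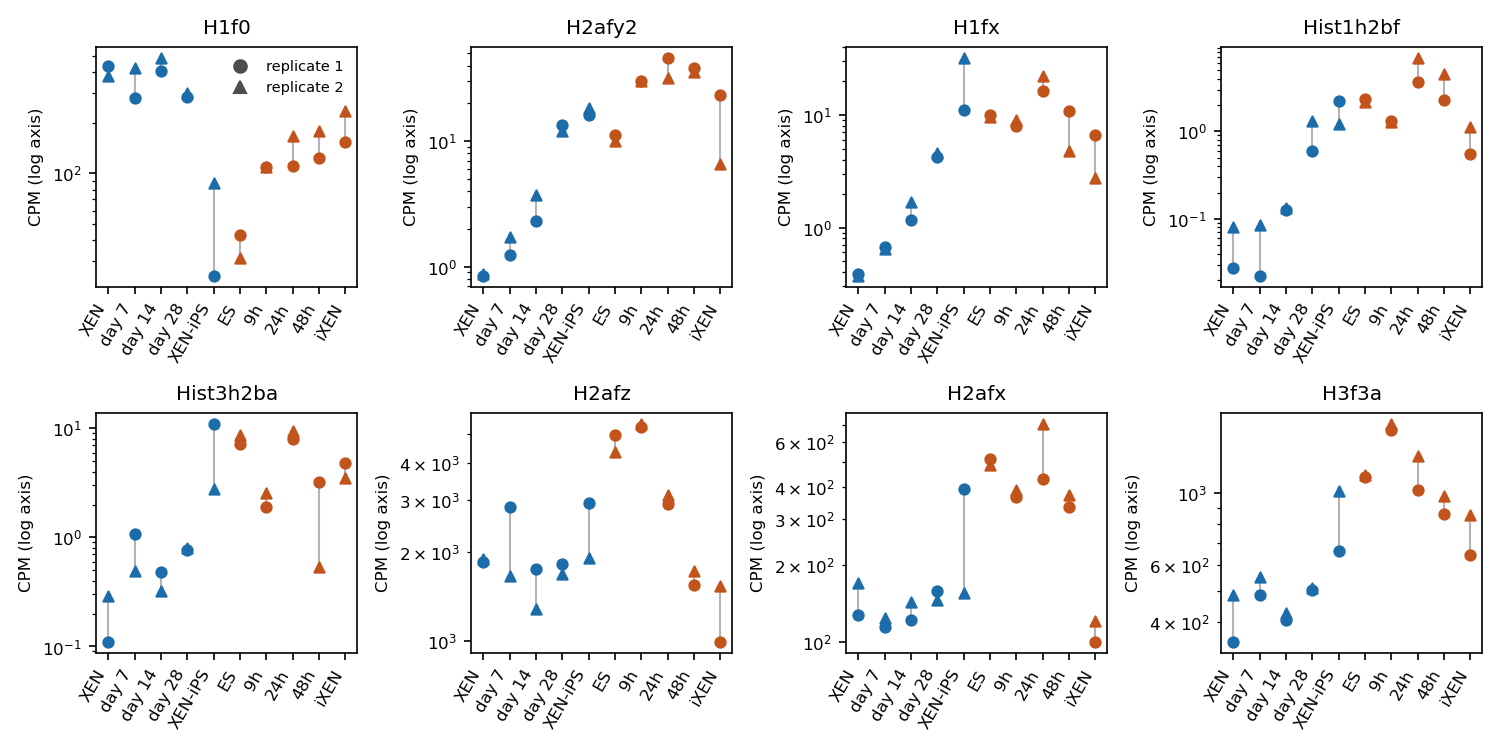
Level (CPM) of single histone genes in each library, 1 point per library and 2 per condition. The axes are logarithmic. H1f0 is high from XEN to day 28 and lowest in XEN-iPS and ES, and H2afy2, H1fx, Hist1h2bf and Hist3h2ba are lowest in XEN or day 7.

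The macroH2A genes differed in size and timing. H2afy (macroH2A1) was at 58.93 and 66.33 CPM in XEN and 128.9 and 202.8 at day 7, a rise of 1.41 on the log2 scale (SE 0.31, adjusted p from edgeR 0.00387) that was lost without day 7 replicate 2. At 48h it was 303.4 and 168.4 CPM against 103.8 and 119.7 in ES (1.08, SE 0.30, adjusted p 0.0107), a call lost without ES replicate 1 or 48h replicate 1 and with another scaling, filter or tool. H2afy2 (macroH2A2, chromosome 10, 61738665 to 61784147, minus strand) was near 0 in XEN, at 0.8451 and 0.8705 CPM or 92 and 96 UMIs. It was 1.231 and 1.728 CPM at day 7, 2.298 and 3.744 at day 14, 13.56 and 12.13 at day 28 and 16.28 and 18.27 in XEN-iPS. Day 7 did not overlap with XEN but was not called (log2 0.80, adjusted p 0.188). Day 14 was called at 1.82 (SE 0.43, adjusted p 0.00622), and the level was 15-fold that of XEN at day 28 (adjusted p 1.22e-05) and 20.1-fold in XEN-iPS (adjusted p 1.59e-06). The day 14 call was lost without XEN replicate 1 or day 14 replicate 2. ES cells stood at 11.28 and 10.09 CPM. In the ES line H2afy2 was above ES in each induced library except iXEN replicate 2, at 30.2 and 30.27 CPM at 9h, 46 and 31.57 at 24h, 37.9 and 35.64 at 48h, with 23.25 and 6.572 in iXEN. It was called 2.8-fold, 3.6-fold and 3.4-fold higher at 9h, 24h and 48h (adjusted p 0.0333, 0.00667 and 0.0027). The 9h call was lost without any 1 of the 4 libraries and the 24h call without ES replicate 1 or 2 or 24h replicate 1. H2afy2 overlaps Aifm2 on the other strand.

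Among the linker variants, H1.0 was lower and H1.X higher in XEN-iPS and ES than in XEN. H1f0 was at 432.6 and 380.3 CPM in XEN, 278.6 and 422.4 at day 7, 405.3 and 486 at day 14, 286.3 and 300.3 at day 28, 24.5 and 88.02 in XEN-iPS and 42.77 and 31.16 in ES. Only XEN-iPS left the range of the earlier conditions, with a fall of 2.85 on the log2 scale against XEN (SE 0.45, adjusted p from edgeR 7.15e-05). This was -2.12 without XEN-iPS replicate 1 and -3.98 without XEN-iPS replicate 2. ES was 11-fold below XEN (adjusted p 1.46e-05). From ES it rose to 109.3 and 108.3 CPM at 9h, 110.4 and 166.5 at 24h, 123.9 and 179.5 at 48h, with 153.9 and 234.3 in iXEN, 5.3-fold in iXEN (adjusted p 0.000335). The 9h call was lost without any 1 of the 4 libraries, and the 24h call without either ES library or 24h replicate 2. H1fx (H1.X, chromosome 6, 87980421 to 87981637, minus strand) was at 0.3858 and 0.3718 CPM in XEN (42 and 41 UMIs), 0.6716 and 0.645 at day 7, 1.167 and 1.699 at day 14, 4.237 and 4.635 at day 28, 11.19 and 32.24 in XEN-iPS and 10.07 and 9.565 in ES. It was 11.7-fold higher at day 28 (adjusted p 0.000111) and 57.1-fold higher in XEN-iPS (adjusted p 7.68e-07) than in XEN. The log2 difference of the latter, 5.83, was 6.49 without XEN-iPS replicate 1 and 4.95 without XEN-iPS replicate 2. From ES, H1fx took no single direction, with 7.958 and 8.962 CPM for 9h, 16.23 and 22.1 for 24h and 10.83 and 4.807 for 48h, and 0 of these were called (log2 -0.21, 0.96 and -0.33). In iXEN it was 6.695 and 2.769 CPM, below both ES libraries and above both XEN libraries, and the difference from ES was not called (log2 -1.05, adjusted p 0.067). H1fx overlaps Gm47286 on its own strand, so its reads and those of that gene may be shared.

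**Figure D4:**
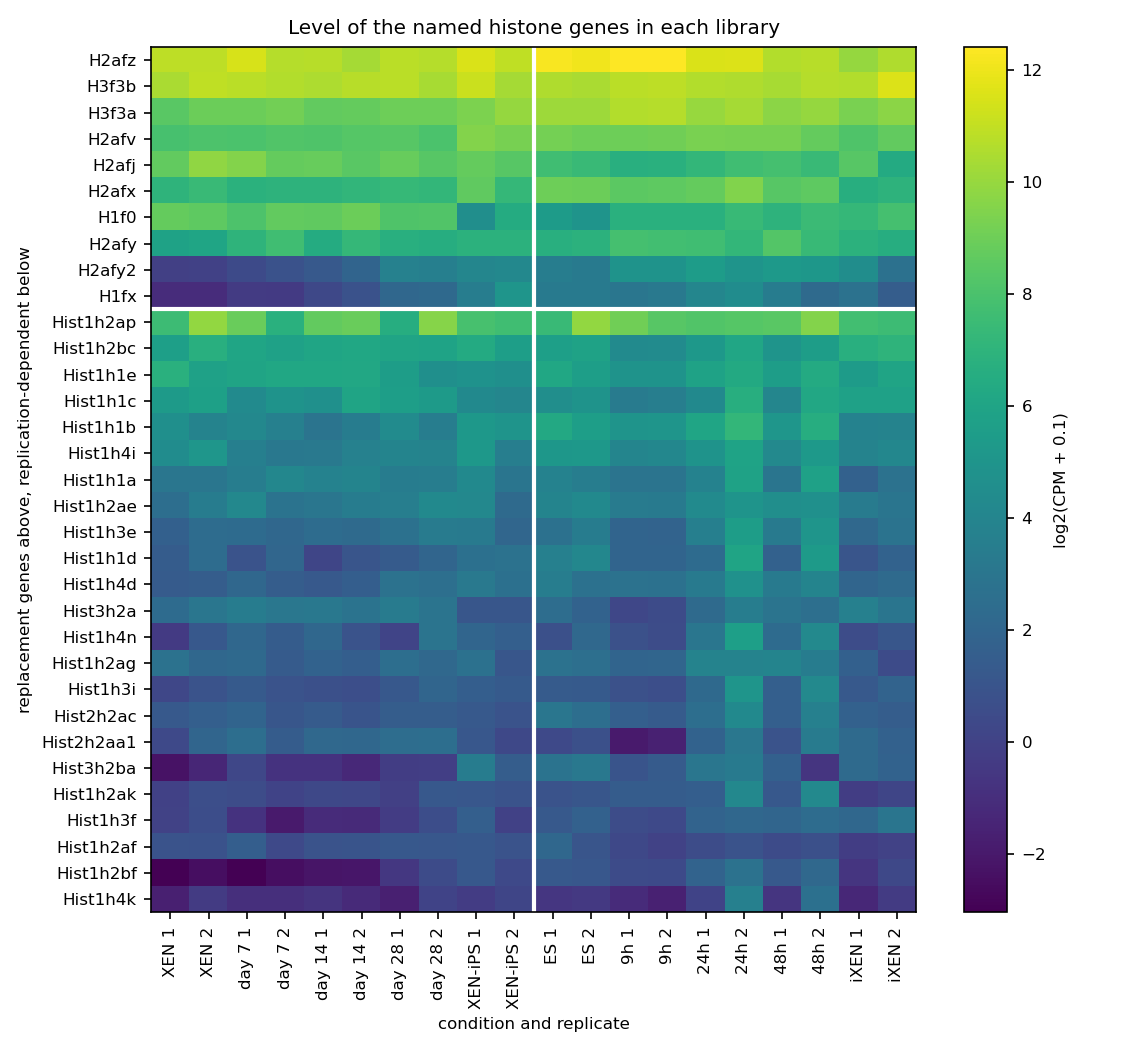
Level of the named histone genes as log2(CPM + 0.1) in each of the 20 libraries, replacement genes above and replication-dependent genes below. H2afy2, H1fx, Hist1h2bf and Hist3h2ba have dark cells, at the low end of the scale, in XEN, day 7 and day 14, and the columns of the second 24h and 48h libraries are lighter than their duplicates in most replication-dependent rows.

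Of the replication-dependent linker genes, Hist1h1b (H1.5) was called between ES and both endoderm states. It was at 78.73 and 48.14 CPM in ES, 25.37 and 14.57 in XEN, 37.37 and 31.34 in XEN-iPS, 30.55 and 32.34 at 9h, 64.65 and 145.9 at 24h, 33.78 and 96.68 at 48h, with 14.02 and 14.45 in iXEN. It was 3.2-fold higher in ES than in XEN (adjusted p from edgeR 0.00758, lost without XEN replicate 2 or ES replicate 1) and 4.5-fold lower in iXEN than in ES (adjusted p 0.00157). Hist1h1d (H1.3) had 12.63 and 17.47 CPM in ES and 1.941 and 3.421 in iXEN, a difference of -2.49 (SE 0.98, adjusted p 0.0424) that was lost without any 1 of the 4 libraries. Hist1h1e (H1.4) was at 108.7 and 55.92 CPM in XEN, 46.56 and 25.07 at day 28, 28.38 and 24.69 in XEN-iPS and 70.27 and 48.98 in ES. It was 3.1-fold lower in XEN-iPS than in XEN (adjusted p 0.00133) and 2.3-fold lower at day 28 (adjusted p 0.0156), with both calls lost without XEN replicate 1 and the day 28 call also without day 28 replicate 2. Without XEN replicate 1 the log2 differences of -1.63 and -1.20 were -1.0 and -0.58. It was 2.2-fold lower in XEN-iPS than in ES as well (adjusted p 0.0346), a call lost without any 1 of the 4 libraries. Its gene overlaps Hist1h2be on the same strand. Hist1h1c (H1.2) and Hist1h1a (H1.1), of means 37.79 and 15.42 CPM, were called in 0 of the 11 comparisons, with ranges of 10.28 to 98.24 and 3.267 to 57.2 CPM and the highest libraries both at 24h replicate 2.

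A pair of H2B genes was hardly counted in XEN and was counted in all pluripotent libraries. They were not alone in this, since the H3 gene Hist1h3d had means of 0.1912 CPM in XEN, 2.876 in XEN-iPS and 2.083 in ES. Hist1h2bf (chromosome 13, 23573736 to 23574196, minus strand) had 3 and 9 UMIs in XEN, 0.02756 and 0.08161 CPM, and 65 and 93 UMIs at day 28, 0.5897 and 1.314 CPM. It was 2.238 and 1.212 CPM in XEN-iPS and 2.32 and 2.147 in ES. The log2 difference from XEN was 4.07 at day 28 (SE 0.68, adjusted p from edgeR 0.000261), 4.94 in XEN-iPS (SE 0.69, adjusted p 2.09e-05) and 5.31 in ES (SE 0.69, adjusted p 1.06e-05). Without XEN replicate 2 these were 5.00, 5.93 and 6.27, and the day 28 value was 3.39 without day 28 replicate 2. Hist3h2ba (chromosome 11, 58948920 to 58949533, plus strand) had 12 and 32 UMIs in XEN, 0.1102 and 0.2902 CPM, against 10.98 and 2.759 CPM in XEN-iPS and 7.196 and 8.627 in ES. It was 34.1-fold higher in XEN-iPS (adjusted p 7.75e-05) and 39.2-fold higher in ES (adjusted p 5.72e-05) than in XEN. The size of the XEN-iPS difference rests on single libraries, since its log2 value of 5.09 was 3.85 without XEN-iPS replicate 1, 5.85 without XEN-iPS replicate 2 and 5.98 without XEN replicate 2, called each time, and that of ES (5.29) was 6.15 without XEN replicate 2. At 48h it was 3.193 and 0.5369 CPM, 4.3-fold below ES (adjusted p 0.0257), a call lost without either ES library or 48h replicate 2, with a log2 difference of -2.10 that was -3.96 without 48h replicate 1 and -1.40 without 48h replicate 2. At day 28 it was 0.7712 and 0.8055 CPM, and its call there (adjusted p 0.0495) was lost without any 1 of the 4 libraries (log2 1.97, and 2.79 without XEN replicate 2). In iXEN both genes stayed above XEN, Hist1h2bf at 0.5498 and 1.13 CPM (15-fold, adjusted p 0.000844) and Hist3h2ba at 4.787 and 3.485 CPM (20.5-fold, adjusted p 0.00119). On the log2 scale Hist1h2bf was 3.90 above XEN, 4.75 without XEN replicate 2 and 3.28 without iXEN replicate 2, and Hist3h2ba 4.36 and 5.11 without XEN replicate 2. Hist1h2bf shares 78% of its 25-base words with other members and Hist3h2ba 12.2%.

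The most counted H2B gene, Hist1h2bc, did not follow this course. It was at 51.66 and 58.53 CPM in ES, 20.38 and 20.85 at 9h and 104.1 and 127.2 in iXEN, which put it 2.7-fold lower at 9h (adjusted p from edgeR 0.0233) and 2.1-fold higher in iXEN (adjusted p 0.017). The 9h call was lost without any 1 of the 4 libraries, and the iXEN call without ES replicate 1 or 2 or iXEN replicate 2 and with another normalization, tool or filter. On chromosome 11 beside Hist3h2ba, the H2A gene Hist3h2a was at 5.025 and 7.907 CPM in XEN and 2.056 and 2.014 in XEN-iPS, 3.2-fold lower (adjusted p 0.00199), and at 1.114 and 1.319 CPM at 9h against 5.558 and 3.467 in ES, 3.7-fold lower (adjusted p 0.00934). The XEN-iPS call was lost with all cells kept (log2 0.02), and the 9h call without ES replicate 1 or either 9h library. Hist3h2a overlaps Trim17 on its own strand. In iXEN it was 13.05 and 7.845 CPM, 2.3-fold above ES (adjusted p 0.0142, lost without ES replicate 2 or iXEN replicate 1). Among the other H2A genes, Hist2h2ac was 2.28 and 1.79 CPM in XEN-iPS and 7.915 and 5.688 in ES, 3.3-fold lower (adjusted p 0.0469), a call lost without any 1 of the 4 libraries. Hist1h2ak and Hist2h2aa1 were called at 48h, with 2.211 and 18.72 CPM and 1.814 and 10.5 CPM against at most 2.001 and 1.568 in ES, so that only replicate 2 stood clearly apart. The log2 differences of 2.47 and 2.17 were 0.14 and 0.32 without 48h replicate 2 and 3.22 and 2.85 without 48h replicate 1. Hist1h2ae, of mean 14.49 CPM, was called in 0 comparisons and ranged from 4.848 to 30.48 CPM. The testis and oocyte pair Hist1h2aa and Hist1h2ba, which lie side by side on chromosome 13 and were picked out after their values were seen, were counted rarely. Hist1h2aa had 0 UMIs in both XEN libraries, 0 in both day 7 libraries, 2 and 0 at day 14, 10 and 12 at day 28, 52 and 7 in XEN-iPS, 5 and 4 in ES, 3 and 1 for 9h, 2 and 21 for 24h, 2 and 5 for 48h and 0 in both iXEN libraries. Its highest levels were 0.7273 CPM in XEN-iPS replicate 1 and 0.3422 CPM in 24h replicate 2. Hist1h2ba had 0 and 1 UMIs in XEN, 0 in both day 7 libraries, 3 and 1 at day 14, 8 and 21 at day 28, 33 and 2 in XEN-iPS, 1 and 3 in ES, 1 and 0 for 9h, 1 and 5 for 24h, 0 and 5 for 48h and 0 in both iXEN libraries.

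Among called members of at least 5 CPM in a condition, Hist1h4k, Hist1h4n and Hist1h3i rose most at 24h. Hist1h3i was at 2.537 and 2.397 CPM in ES and 4.615 and 32.28 at 24h, a rise of 2.90 on the log2 scale (SE 0.76, adjusted p from edgeR 0.0196). Hist1h4n was at 1.562 and 4.42 CPM in ES and 8.147 and 51.61 at 24h (3.32, SE 0.97, adjusted p 0.0324). Hist1h4k was at 0.5681 and 0.623 CPM in ES and 0.9447 and 12.91 at 24h (3.54, SE 1.12, adjusted p 0.0469). In all 3 the second 24h library stood far above the first, and each call was lost without that library and without either ES library. Without 24h replicate 2 the values were 0.86, 1.41 and 0.62, and without 24h replicate 1 they were 3.66, 4.06 and 4.39, with 2.73 and 4.22 for Hist1h4n without ES replicate 1 and ES replicate 2. Hist1h4d differed between the stable states instead, at 2.517 and 2.802 CPM in XEN, 9.301 and 6.209 in XEN-iPS and 11.13 and 6.413 in ES. It was 2.9-fold higher in XEN-iPS (adjusted p 0.00518) and 3.3-fold higher in ES (adjusted p 0.00253) than in XEN. Its day 28 level of 6.904 and 5.907 CPM was called too (adjusted p 0.024), a call lost without any 1 of the 4 libraries. Hist1h4i, the most counted H4 gene, was 21.77 and 34.35 CPM in XEN and 12.45 and 8.787 at day 7, 2.6-fold lower (adjusted p 0.036), a call lost without any 1 of the 4 libraries. Hist1h3f was 0.891 and 1.451 CPM in XEN and 4.237 and 7.877 in iXEN, 5.2-fold higher (adjusted p 0.00696), a call lost without XEN replicate 1 or iXEN replicate 2. Hist1h3e, of mean 9.865 CPM, was called in 0 comparisons, with 46.97 and 32.97 CPM in the second 24h and 48h libraries and at most 12.37 in the other 18.

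Both conversions pass between an endoderm and a pluripotent state, and the difference between those states was compared between the lines, as XEN-iPS against XEN set against ES against iXEN. The 2 differences themselves differed for 4 members in the positive and 5 in the negative direction (all genes: 17.1% and 8.09%). The count of 9 was 18 without XEN-iPS replicate 1, 5 without XEN replicate 1 or ES replicate 1 and 6 without iXEN replicate 2, and between 7 and 9 without each of the others. H2afy2 gained 4.33 on the log2 scale from XEN to XEN-iPS, while ES lay 0.48 below iXEN. The difference of differences was thus 4.81 (SE 0.60, adjusted p from edgeR 0.000102). H1fx gave 4.78 (SE 0.70, adjusted p 0.000314), Hist3h2ba 4.16 (SE 1.01, adjusted p 0.00767) and Hist1h2bf 3.54 (SE 0.86, adjusted p 0.00755). For these 4 genes iXEN lay well above XEN, so the ES line showed the smaller difference. For H2afy2 the difference between ES and iXEN was not called. Its direction rests on iXEN replicate 1, since iXEN (23.25 and 6.572 CPM) lay on both sides of ES (11.28 and 10.09 CPM). One kept cluster of 654 cells in iXEN replicate 1 had endoderm markers at 288.0 CPM and pluripotency markers at 252.2 CPM, while the endoderm markers were at 745.7 to 4213.3 CPM in the other clusters of that library. In plain CPM, H2afy2 was at 89.34 in this cluster and 21.98 in the other 5258 cells, H1fx at 31.73 and 5.529, Hist3h2ba at 13.47 and 5.176 and Hist1h2bf at 1.773 and 0.5647. Without iXEN replicate 1 the log2 difference of iXEN from XEN was 2.92 for H2afy2 (4.12 with it, and 4.74 without iXEN replicate 2) and 2.85 for H1fx (3.64 with it). The difference of differences was 3.59 for H2afy2 and 3.98 for H1fx without iXEN replicate 1, and 5.41 for H2afy2 and 2.89 for Hist1h2bf without iXEN replicate 2. It was 5.38 and 3.79 for H1fx and 2.86 and 4.80 for Hist3h2ba without XEN-iPS replicate 1 and 2, and 4.41 for Hist1h2bf and 4.94 for Hist3h2ba without XEN replicate 2. H2afz went the other way, at -1.51 (SE 0.39, adjusted p 0.0112), from 0.36 between XEN and XEN-iPS and 1.88 between iXEN and ES. In the same comparison 21 of 35 S phase genes and 9 of 30 G2 and M phase genes were called in the negative direction and 0 in the positive one, with medians of -1.12 and -0.77 beside 0.16 over all genes, and their part in the values of H2afz and H2afx was not tested. The calls of H2afy2, H1fx, Hist3h2ba, Hist1h2bf and H2afz remained under every setting tried. H2afx (-1.30), Hist1h1e (-1.82), Hist1h2af (-1.76) and Hist1h2ag (-1.87) were called as well, and each of these calls was lost without at least 3 of the 8 libraries. Those of H2afx and Hist1h2ag were -2.09 and -2.91 without XEN-iPS replicate 1, Hist1h2ag was -2.68 without iXEN replicate 1 and Hist1h2af -1.14 without ES replicate 1.

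Genes that carry, load or exchange histones were taken from a list of chaperones and exchange factors. Of 27 tested, 12 fell and 1 rose in iXEN against ES (all genes: 19.5% lower, 24.5% higher), with a median log2 fold change of -0.98 beside 0.07 over all genes. Nasp, a chaperone of H3 and H4 and of H1, was at 469.3 CPM on average in ES and 107.2 in iXEN (-2.13, SE 0.27, adjusted p from edgeR 8.71e-06). Ruvbl1 and Ruvbl2, subunits of the complexes that exchange H2A.Z, fell by 2.31 and 2.10. Ubn1, a subunit of the HIRA complex that deposits H3.3, was the gene that rose (1.83, SE 0.24, adjusted p 1.42e-05). In ES against XEN 7 rose and 1 fell (all genes: 23.6% and 21.7%), Ubn1 falling by 2.27, and in XEN-iPS against XEN 2 rose and 2 fell (all genes: 26.4% and 20.7%). Of 14 genes for the processing and transcription of histone mRNA, at most 2 were called in a comparison of 2 conditions. Zfp473, a factor of the U7 snRNP that cuts histone pre-mRNA, fell by 2.64 in iXEN against ES (SE 0.29, adjusted p 2.49e-06), from a mean of 9.767 to 1.565 CPM. Slbp stood at 113.8 and 101.3 CPM in ES and 51.27 and 49.07 in XEN-iPS (-1.10, SE 0.26, adjusted p 0.00905).

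Cell-cycle genes moved with some of these differences. Of 35 S phase genes, 19 fell and 0 rose in iXEN against ES, and of 30 G2 and M phase genes 14 fell and 0 rose (all genes: 19.5% lower, 24.5% higher). In ES against XEN, 6 and 9 rose and 0 fell (all genes: 23.6% and 21.7%). Summed S phase genes were 3115 and 2888 CPM in ES, 3378 and 3332 at 9h, 1014 and 1353 in iXEN and 2066 and 1761 in XEN. At 24h, where 14 replication-dependent genes were higher, 4 S phase genes were lower and 0 higher (all genes: 3.89% and 7.37%), and at 9h, where 7 were lower, 2 were higher and 1 lower (all genes: 2.6% and 3.56%). The part of the cell cycle in the histone differences was not tested.

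Within each library the cells were ranked by their share of S phase UMIs and split into 4 equal parts, and the top part was set against the bottom part, as a description over cells with no test. H2afz was higher in the top part in 20 of 20 libraries, with a median fold of 1.46 (1.03 to 5.19). Hist1h1b was higher in 19 (median 2.32), Hist1h1a in 19 (1.98), Hist1h1e in 19 (1.60) and Hist1h2ap in 18 (1.79). The replication-dependent sum was higher in 16 of 20, with a median fold of 1.39, and in 12 of 20 (1.09) without Hist1h2ap. Hist1h2bc and Hist1h1c were lower in the top part in 15 (0.65) and 16 (0.63) libraries. With each cell thinned to 2000 UMIs the sum was higher in 16 of 20 (median fold 1.29) and H2afz in 20 of 20 (1.33).

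Ranked by G2 and M phase genes, the cells gave another picture. The replication-dependent sum was lower in the top part in both libraries of ES, 9h, 24h and XEN-iPS and in XEN replicate 1, and higher in the other 11, with a median fold of 1.69 over the 20 libraries (0.47 to 5.79). Without Hist1h2ap it was higher in 10 and lower in 10, with a median fold of 0.94 (0.55 to 1.91), so much of the rise was in this 1 gene. In ES it was 827.1 CPM in the bottom and 397.4 in the top part of replicate 1 and 1787 and 911.3 in replicate 2. In iXEN it was 472 and 903.6 CPM in replicate 1 and 396.8 and 878.9 in replicate 2, and in day 28 replicate 2 it was 245.6 and 1422 CPM, or 229.8 and 438.5 CPM without Hist1h2ap. Cells at 48h were on the side of iXEN, with 381.3 and 674.9 CPM in replicate 1. H2afx was higher in the top part in 20 of 20 libraries (median fold 2.52) and H2afv in 19 (1.39), while Hist1h2bc and Hist1h1c were lower in 17 each. The parts differ in depth, and in ES replicate 1 the median cell had 11553 UMIs in the bottom and 14393 in the top part.

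**Figure D5:**
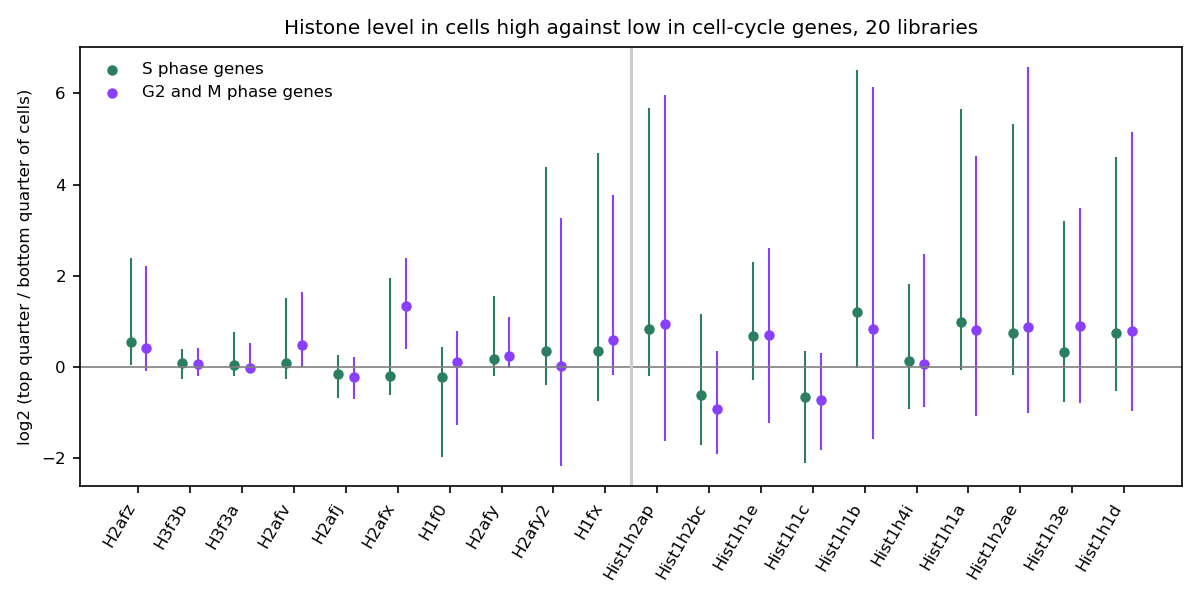
Log2 ratio of the level in the top to that in the bottom of 4 equal parts of cells, ranked within each library by S phase genes (green) or G2 and M phase genes (violet), for each named gene. Points are medians over 20 libraries and lines run from the lowest to the highest library, and H2afz (S phase) and H2afx (G2 and M phase) lie above 0 in all 20.

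At day 28 the libraries hold cells of both states, and single histone genes were compared between those cells, as a description with no test. Cells were ranked within each library by the share of UMIs of the pluripotency list. From the bottom to the top part, H1f0 went from 422.5 to 90.6 CPM in replicate 1 and from 547.9 to 66.33 CPM in replicate 2. H2afy2 went from 4.077 to 28.68 and from 0.8195 to 28.3 CPM, and H1fx from 1.031 to 10.23 and from 0.8195 to 9.968 CPM. Hist1h2bf had 1 UMI in the bottom and 53 in the top part of replicate 1, and 0 and 73 in replicate 2. The top parts were deeper, with a median of 26494 against 14212 UMIs per cell in replicate 1 and 51591 against 21219 in replicate 2. The list holds Pou5f1 and Sox2, which the induced cassette also carries, and how many of their counts come from it was not tested. H2afz went from 1389 to 2674 and from 1084 to 2875 CPM, and its difference between XEN and XEN-iPS was not called.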

How the data were processed

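The deposited tables hold raw UMI counts per gene and cell, which the authors made with SEQC from 10x 3′ v2 libraries on the mm10 (GRCm38) genome, with reads that fit several genes resolved by that tool and cells rich in mitochondrial RNA removed. Here a cell needed at least 500 genes to be used, and clusters rich in feeder or differentiation markers and single cells with 2-cell markers were removed, by limits set after seeing the data (a cluster mean of 400 CPM for feeders, and 1000 CPM with 3 UMIs for 2-cell genes). No doublet caller was run, and leaving out the top 5% of UMI totals in each library was an alternative. Counts of the kept cells were summed per library (46174730 to 138204184 UMIs) and tested over 10 conditions of 2 libraries with edgeR 4.0.16 (TMM scaling, quasi-likelihood test, 10 residual degrees of freedom, R 4.3.3), with Benjamini-Hochberg adjustment over 16758 genes past edgeR's filter on low counts. A call needed a change of 1 or more on the log2 scale beside an adjusted p below 0.05, and a standard error is the fold change divided by the root of F. Levels are TMM-scaled CPM, and those of parts of a library are plain CPM.

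The duplicates are technical, so p-values measure only the spread between libraries. Samples were grouped by their labels. The members and gene lists were chosen with earlier results of these data known. The text names the 10 highest genes of each class, up to 3 called members in each direction per comparison with at least 5 CPM in a condition, the members whose differences differed between the lines, and up to 3 called genes per list. Hist1h2aa and Hist1h2ba, outside this rule, were added after their values were seen. The model was tested on simulated data. Alternatives were another scaling, filter, tool (DESeq2 1.42.0), cell filter, set of libraries, block and the omission of each library. Replicate numbers did not pair the samples over all conditions (9 of 45 pairs of conditions correlated over 0.1), but XEN, day 28 and ES, all of the first run, correlated by number (r of 0.118 to 0.166). Mouse symbols are written in mouse style. Stem-loops and overlaps come from GENCODE vM21 and promoters from RefSeq on GRCm38.p6.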

Additional observations from a re-analysis of the deposited data

Results flagged for a closer look

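For 9 histone genes the difference between the pluripotent and the endoderm state differed between the lines by the interaction term of edgeR (XEN-iPS against XEN set against ES against iXEN), 4 in the positive and 5 in the negative direction (all genes: 17.1% and 8.09%). The term was 4.81 for H2afy2, 4.78 for H1fx, 4.16 for Hist3h2ba and 3.54 for Hist1h2bf on the log2 scale, and -1.30 for H2afx, -1.51 for H2afz, -1.76 for Hist1h2af, -1.82 for Hist1h1e and -1.87 for Hist1h2ag. The calls of H2afx, Hist1h1e, Hist1h2af and Hist1h2ag were lost without at least 3 of the 8 libraries each. In the same comparison 21 of 35 S phase genes were called in the negative and 0 in the positive direction. The lines, the factors induced and the media differ together, and they cannot be told apart.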

How the results depend on the processing

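The percentages after the counts are the shares of all genes called under the same setting, in either direction. With the model fitted only on the libraries compared, the counts of histone genes called were 8 at day 7 (22.2%), 9 at day 14 (22.1%), 17 at day 28 (33.4%), 31 for ES against XEN (49.8%), 31 for 9h (16.9%), 32 for 24h (16%), 29 for iXEN against ES (44.8%) and 0 in XEN-iPS against ES (5.19%), of 73 to 75 members tested. With no filter on low counts they were 27 of 83 members at 24h (8.93%), 28 in iXEN against ES (33.2%) and 5 in XEN-iPS against ES (12%), and DESeq2 gave 27 of 78 at 24h (12.6%). With all cells of at least 500 genes kept they were 1 at day 7 (17.6%), 3 for 9h (4.27%), 4 for 24h (7.06%), 9 for 48h (26.8%) and 5 for XEN-iPS against ES (18.8%), where RLE scaling gave 1 (14.8%). Of the ES, 9h and 24h libraries, only ES replicate 1 gained cells in that setting (289), and the cause of the lower counts at 9h and 24h was not tested. Leaving out each library in turn gave 0 to 2 at day 7, 0 to 3 at day 14, 3 to 7 at day 28, 11 to 25 in XEN-iPS against XEN, 0 to 2 at 9h, 0 to 22 at 24h, 3 to 28 at 48h, 12 to 13 in iXEN against ES, 14 to 17 in ES against XEN, 0 to 10 in XEN-iPS against ES, 4 to 8 in iXEN against XEN and 5 to 18 for the difference between the lines. Of 82 calls of named genes, 37 remained under every setting run. The sign turned for Hist1h2bc (1.45) and Hist3h2a (0.02) in XEN-iPS against XEN with all cells kept. That setting returned 3732 feeder-like cells to XEN-iPS replicate 2. Hist1h2bc was at 855.2 CPM in them and 57.5 in the kept cells, and Hist3h2a at 28.39 and 2.339 CPM. The sign also turned for H2afj in iXEN against ES without iXEN replicate 1 (-1.15, and 0.80 without iXEN replicate 2). The cause of these turns was not tested.

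With the replicate number as a block, the count in XEN-iPS against ES was 1 (14.5%), and the other counts were within 1.5 times of those without the replicate block. A run block gave 20 at day 28 (31.1%) and 30 in ES against XEN (45.5%). On the libraries of the first run alone, a choice made after seeing the data, the counts were 21 (35.2%) and 35 (49.6%) with the replicate block, and 16 at day 28 without it (34.9%). In this run XEN, day 28 and ES deviated together by replicate number. Depth limits the statements on Hist1h2bf and Hist3h2ba, with at most 32 UMIs in a XEN library.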

Other observations

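The feeder-like cells that were left out had a histone profile of their own, given here as summed values with no test. The feeders had been treated with mitomycin C to stop their division, and the part of this treatment in the values was not tested. In 4 libraries that held at least 301 such cells, Hist1h2bc was at 547.9 CPM in the feeder-like and 59.84 in the kept cells of day 7 replicate 1, 587.9 and 64.41 in day 28 replicate 1, 758.4 and 92.05 in XEN-iPS replicate 1 and 855.2 and 57.5 in XEN-iPS replicate 2. Hist1h1c was at 121.2 to 230 CPM in the feeder-like and 18.12 to 50.34 in the kept cells, and Hist1h4h at 59.82 to 88.31 and 4.494 to 7.804. Hist1h2ap went the other way, with 14.56 to 87.14 CPM in the feeder-like and 95.01 to 429.7 in the kept cells. Summed S phase genes were lower in the feeder-like cells, with 279.4 CPM against 1464 in day 7 replicate 1 and 394 against 2472 in XEN-iPS replicate 2. With all cells kept, the log2 difference of Hist1h2bc between XEN-iPS and XEN was 1.45.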
